A study of Mus musculus with 2 samples.

Results

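The genes described here are the chemokine ligand genes of the mouse, examined for binding of MEF2A, a MADS-box transcription factor, in CH12.LX, a B cell lymphoma line of strain B10.H-2aH-4bp/Wts. They were chosen by name: every protein-coding RefSeq gene whose symbol starts with Ccl or Cxcl and a digit, with Xcl1, Cx3cl1 and Pf4. That gave 40 of 21900 protein-coding genes, of which 39 had a usable transcription start site (TSS) on mm10, against 21430 of all genes. Ccl21c was left out because its listed position lies before the first called interval of chromosome 4. Binding was mapped by ChIP-seq, sequencing of DNA pulled down with an antibody to MEF2A, in 2 biological replicates from separate biosamples of the same female line, with no treatment or second factor named. A control library named in the labels was not analysed here. The replicates form 1 group, so values are set side by side and no test between conditions was possible. No expression was measured, so the cell type label was not checked against marker levels, and a peak says nothing about whether a gene was transcribed.

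Chemokines are small secreted proteins that steer leukocytes along concentration gradients by binding receptors coupled to G proteins. The homeostatic ones, such as Cxcl12, Cxcl13, Ccl19 and Ccl21a, are made mainly by stromal cells and place lymphocytes within lymphoid organs. The inflammatory ones are induced in many cells by infection or antigen, often through NF-kB and interferon signalling. Activated B cells are known to secrete Ccl3, Ccl4 and Ccl22, which attract T cells.

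MEF2A peaks lay near a minority of the chemokine genes, and the strongest of them sat at or near Ccl20, Ccl22, Ccl1, Cxcl10 and Ccl3. A peak was assigned to a gene when its summit lay within 10 kb of the TSS, taken as the outermost RefSeq start. By that rule 13 of 39 chemokine genes (33.3%, 95% Wilson interval 20.6 to 49.0) had a peak of the optimal set, a set of reproducible peaks chosen by irreproducible discovery rate (IDR), against 42.8% of all protein-coding genes. The interval covers counting error over genes only, and clustered genes are not independent. The all-gene share lies within it. The 13 genes were Ccl1, Ccl3, Ccl4, Ccl5, Ccl6, Ccl20, Ccl22, Ccl24, Ccl26, Cx3cl1, Cxcl5, Cxcl10 and Cxcl16. Together they had 28 distinct peaks, counting once the 3 peaks that lay within reach of a pair of neighbouring members. Ccl4 was called from a RefSeq start inside Ccl3, and both of its peaks were shared with Ccl3.

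The DNA under the peaks closest to a TSS is shown first, as these 3 summits lay within the RefSeq promoter window. The sequences are the 250 bases before each TSS (RefSeq, GRCm38.p6, the same assembly as mm10), written 5′ to 3′ along the gene. Capitals mark matches to the elements searched, here those of NF-kB and AP-1. They lie at chr5:92348890-92349139 on the minus strand, chr8:94745434-94745683 on the plus strand and chr11:83649379-83649628 on the minus strand.
Cxcl10: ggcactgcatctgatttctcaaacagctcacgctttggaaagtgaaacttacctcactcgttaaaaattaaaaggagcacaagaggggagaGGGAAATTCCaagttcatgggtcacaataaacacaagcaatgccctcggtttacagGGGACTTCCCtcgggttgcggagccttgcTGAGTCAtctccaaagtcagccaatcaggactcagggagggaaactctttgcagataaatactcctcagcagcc
Ccl22: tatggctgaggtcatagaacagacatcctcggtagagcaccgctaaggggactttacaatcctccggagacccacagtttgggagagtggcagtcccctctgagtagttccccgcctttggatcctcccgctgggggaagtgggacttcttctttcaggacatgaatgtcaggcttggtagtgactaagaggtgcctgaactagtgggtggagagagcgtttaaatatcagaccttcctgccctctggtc
Ccl3: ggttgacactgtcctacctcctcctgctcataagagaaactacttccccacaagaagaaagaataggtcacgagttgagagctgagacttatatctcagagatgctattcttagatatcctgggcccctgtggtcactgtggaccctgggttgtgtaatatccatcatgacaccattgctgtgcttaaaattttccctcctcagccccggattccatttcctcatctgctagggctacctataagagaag

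Cxcl10 encodes an interferon-induced ligand of Cxcr3. Its window held 2 matches to the NF-kB consensus, GGGAAATTCC at positions -159 to -150 and GGGACTTCCC at -103 to -94, counted from the TSS, and 1 AP-1 element, TGAGTCA at -74 to -68. The summit of the Cxcl10 peak, 138 bp upstream of the TSS, lay between both NF-kB matches. The windows of Ccl22 and Ccl3 held no match to any of the 9 elements searched. Those were the MEF2 consensus, the MEF2 core, the NF-kB consensus, the CTCF consensus, AP-1 (TGACTCA or TGAGTCA), the composite of ETS and IRF factors, the octamer (ATGCAAAT), RUNX (TGTGGTT) and PU.1 (GAGGAAGT), each on both strands. The MEF2 core lies inside the MEF2 consensus, so those matches overlap.

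Some chemokine promoters held such elements and had no optimal peak within 10 kb. The next sequences are shown as examples of this, with an NF-kB and a MEF2 element. Cxcl2, a neutrophil attractant, is on the plus strand at chr5:90903649-90903898, and Xcl1, a ligand made by T and NK cells, on the minus strand at chr1:164935523-164935772.
Cxcl2: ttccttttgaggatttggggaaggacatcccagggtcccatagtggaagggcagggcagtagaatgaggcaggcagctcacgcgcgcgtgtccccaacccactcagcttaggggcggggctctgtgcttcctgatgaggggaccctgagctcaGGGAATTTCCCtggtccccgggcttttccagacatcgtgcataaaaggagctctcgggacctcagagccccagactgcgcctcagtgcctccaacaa
Xcl1: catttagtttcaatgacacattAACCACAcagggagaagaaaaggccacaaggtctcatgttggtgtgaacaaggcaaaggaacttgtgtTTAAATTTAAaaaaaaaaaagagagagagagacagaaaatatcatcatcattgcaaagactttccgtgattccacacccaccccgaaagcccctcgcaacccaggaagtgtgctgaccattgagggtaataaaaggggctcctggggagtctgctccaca

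In the Cxcl2 window the NF-kB match is GGGAATTTCC at -97 to -88, overlapped by a second match 1 base further on. The same bases occurred in the windows of Cxcl1 (-71 to -62) and Cxcl3 (-73 to -64), which encode related neutrophil attractants. None of the 3 genes had an optimal peak within 10 kb. Cxcl2 is no clear absence, as its best interval within 10 kb ranked 19882 in replicate 1, within the first 31497. In replicate 2 it ranked 79142. The Xcl1 window held the only MEF2 consensus among the 35 chemokine promoter windows in the RefSeq table, TTAAATTTAA at -160 to -151, beside a RUNX match (AACCACA, the reverse strand form). The nearest optimal summit was 18294 bp upstream of Xcl1. For scale, over whole RefSeq windows of 250 bases before and 50 after each start, the NF-kB consensus occurred in 7 of 35 chemokine windows and 4.51% of all 32851 RefSeq promoter windows, and the MEF2 consensus in 1 of 35 and 3.19%. The 35 windows came from 29 genes, some overlap, and Cxcl1, Cxcl2 and Cxcl3 hold the same NF-kB site. The windows are therefore not independent, and no difference was tested. A match describes letters in a window and is not a bound site.

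The 28 peaks lay above the middle of the optimal set by median signal, and none was among its very strongest. Their signal, the authors' own value per peak, had a median of 44.4 and ran from 10.9 to 90.4, against a median of 34.9 and a range of 6.41 to 535 over all 31497 optimal peaks. No chemokine peak ranked among the first 3000, and 5 ranked among the first 4000. Of the 28 peaks, 18 lay in the stronger 50% of the set. Taking each gene's best peak, the median rank was 5116 over the 13 chemokine genes and 13137 over the 9178 genes with a peak. A better peak than that of any chemokine gene was found at 800 of those genes (8.72%).

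**Figure D1:**
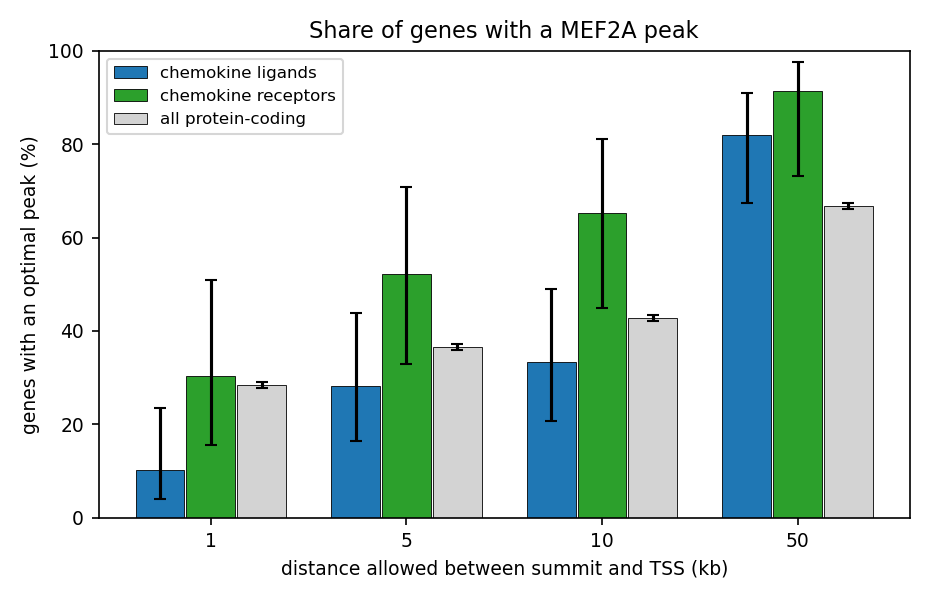
Share of genes with an optimal MEF2A summit within 1, 5, 10 or 50 kb of the TSS (%), for 39 chemokine ligand genes, 23 chemokine receptor genes and all 21430 protein-coding genes with a usable TSS; error bars are 95% Wilson intervals. Ligand genes sit at 10.3% within 1 kb and 82.1% within 50 kb, against 28.5% and 66.8% of all genes. Clustered genes can count the same peak.

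The share of chemokine genes with a peak was below that of all genes within 1 kb of the TSS and above it within 50 kb, and neither difference was tested. Within 1 kb a peak lay at 4 of 39 chemokine genes (10.3%, 4.06 to 23.6), against 28.5% of all genes. Among these 4, Ccl4 counted through the Ccl3 peak, from its RefSeq start inside Ccl3. Within 5 kb it was 11 of 39 (28.2%), against 36.7%. Within 50 kb it was 32 of 39 (82.1%, 67.3 to 91.02), against 66.8%. At that distance clustered genes counted the same peaks. Ccl2, Ccl7 and Ccl11 each had only the peak at rank 10623, and Cxcl3, Cxcl15 and Pf4 only that of Cxcl5 (rank 20538). Only 3 distinct peaks lay within 1 kb, those at Ccl22, Cxcl10 and Ccl3, and 14 of the 28 summits lay upstream and 14 downstream of the nearest chemokine TSS. The plot of shares by window shows the change in order between the ligand genes and all genes.

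**Figure D2:**
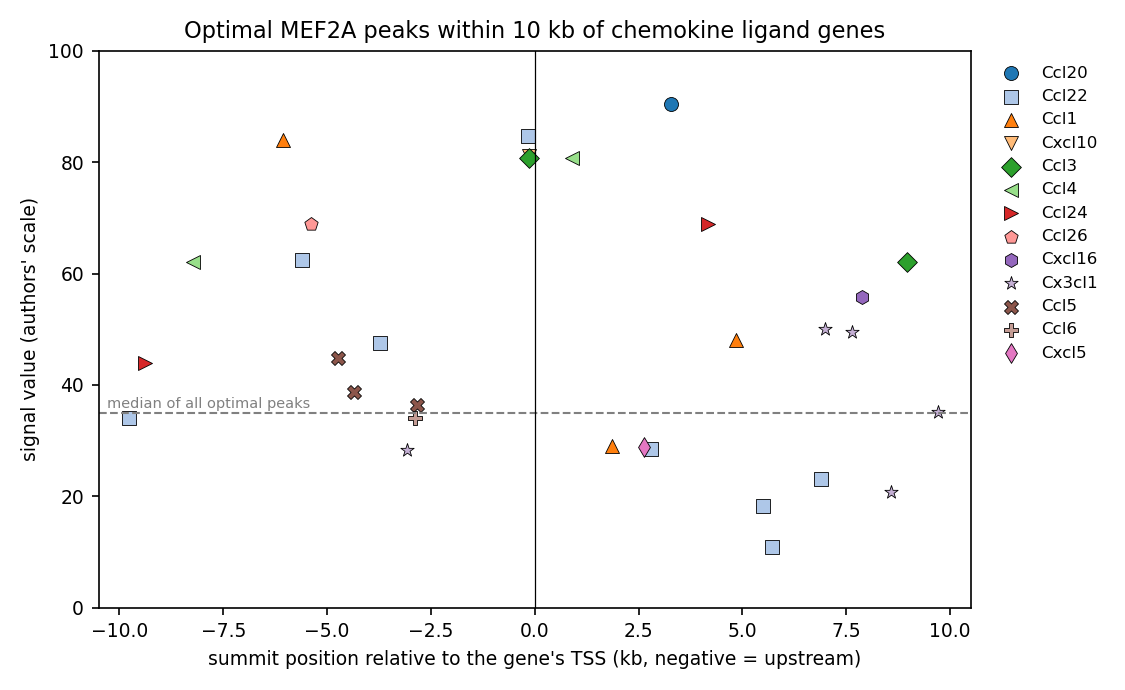
Signal value of each optimal peak (authors' scale, y axis) against the position of its summit relative to the TSS (kb, negative is upstream, x axis), with 1 symbol per gene and a dashed line at the median of all optimal peaks (34.9); the 3 shared peaks appear once for each gene. The peaks at Ccl22, Cxcl10 and Ccl3 stand within 0.2 kb of the TSS at 80.8 to 84.7, where the symbol of Ccl3 covers most of that of Cxcl10, while the highest value, 90.4, belongs to the peak downstream of Ccl20.

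Among the dual chemokines, which take part in both lymphoid traffic and inflammation, 5 of 8 genes (62.5%) had a peak, against 42.8% of all genes. Ccl20, the ligand of Ccr6 and an attractant of B cells and dendritic cells, had 1 peak, the strongest of all chemokine peaks (signal 90.4, rank 3160, chr1:83119868-83120227, mm10). Its summit lay 3282 bp downstream of the TSS, past the end of the gene. The best overlapping interval ranked 7468 in replicate 1 and 2221 in replicate 2, so the peak was higher in the order of replicate 2. On mm9 it was again the strongest chemokine peak, at rank 2874 of 16839.

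Ccl22, which attracts T cells through Ccr4, had 8 peaks within 10 kb, the most of any chemokine gene. That many were found at 44 of all 21430 genes (0.205%). The strongest (84.7, rank 3519, chr8:94745346-94745705) had its summit 158 bp upstream of the TSS and ranked 3775 in replicate 1 and 3304 in replicate 2. Further upstream, summits at 3729, 5607 and 9758 bp had signals of 47.6, 62.5 and 34.2. Downstream, 4 summits between 2796 and 6883 bp had lower signals, from 10.9 to 28.5, and 2 of these peaks overlapped each other and shared 1 interval in each replicate list. In the shorter mm9 list Ccl22 had 3 peaks, among them the one at the promoter (rank 3350, 65 bp upstream of the GENCODE TSS).

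Cx3cl1 lies next to Ccl22 and encodes fractalkine, a chemokine anchored to the membrane by a mucin stalk. It had 5 peaks, a count reached or passed by 2.18% of all genes. The 4 downstream summits lay between 6978 and 9710 bp from the TSS, inside the gene, with signals of 50.03, 49.5, 35.2 and 20.8. The remaining summit, 3081 bp upstream, had a signal of 28.3. The best Cx3cl1 peak ranked 4617 in replicate 1 and 15411 in replicate 2, an order opposite to that of Ccl20. From 10 kb before the Ccl22 TSS to the TSS of Ccl17, a stretch of 73.7 kb, there were 16 optimal peaks. Of these, 13 belonged to Ccl22 or Cx3cl1 and the other 3 lay 11914 to 13645 bp downstream of the Cx3cl1 TSS. Ccl17, which binds Ccr4 as Ccl22 does, had no peak within 10 kb, and its nearest was 23555 bp upstream.

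Ccl1, the ligand of Ccr8, had 3 peaks. The strongest (84.0, rank 3574, chr11:82185699-82186058) lay 6067 bp upstream and ranked 6904 in replicate 1 and 2999 in replicate 2. The others lay 4845 bp (48.1) and 1863 bp (29.0) downstream, the nearer one inside the gene. Cxcl16, a transmembrane ligand of Cxcr6, was assigned 1 peak (55.8, rank 7328). That summit lay 7884 bp downstream of the Cxcl16 TSS but 182 bp from the TSS of Med11, a Mediator subunit gene, and inside Med11. It was the 1 peak of the 28 whose nearest TSS was not that of a chemokine gene. Xcl1 and Cxcl17 had none.

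Of the inflammatory CC chemokines, 6 of 12 (50%) had a peak, near the 42.8% of all genes. Ccl3 (MIP-1 alpha) had the strongest (80.8, rank 3823, chr11:83649343-83649702), with its summit 145 bp upstream of the TSS and ranks of 4175 in replicate 1 and 3696 in replicate 2. A second Ccl3 peak, 8972 bp downstream, had a signal of 62.1. Ccl4 (MIP-1 beta), a close relative of Ccl3, was assigned both of these peaks from a RefSeq span on mm10 that starts inside Ccl3. From the GENCODE TSS of Ccl4 on mm9, the same pair of peaks lay 13069 and 22183 bp away, and Ccl4 had no mm9 peak within 10 kb.

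Ccl5 (RANTES) had 3 peaks in a row upstream of its TSS, with summits at 2832, 4343 and 4742 bp and signals of 36.4, 38.8 and 44.9. The nearest one differed most between the replicates of all chemokine peaks, at rank 210542 in replicate 1 and 10486 in replicate 2, and it was not in the conservative IDR set. All 3 Ccl5 peaks were also in the mm9 list, at ranks 8728, 11669 and 16756. Ccl24 and Ccl26, the eotaxin genes that neighbour each other on chromosome 5, shared a peak (68.9, rank 5116) lying 4162 bp downstream of Ccl24 and 5392 bp upstream of Ccl26. Ccl24 had a further peak 9382 bp upstream (43.9). Ccl6, a chemokine of rodent myeloid cells, had 1 peak 2890 bp upstream (34.1, rank 16300), which was not in the mm9 list. The remaining members, Ccl2, Ccl7, Ccl8, Ccl9, Ccl11 and Ccl12, had none.

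Among the CXC chemokines, peaks lay at Cxcl10, Cxcl5 and Cxcl16, the last described above with the dual chemokines. The other CXC genes had none, but most protein-coding genes also lacked one, as 42.8% of all genes had a peak. Cxcl10 had 1 peak (81.2, rank 3783, chr5:92348847-92349206), at rank 4306 in replicate 1 and 3854 in replicate 2. Its neighbour Cxcl9, which binds the same receptor, had none within 10 kb, the nearest being 18060 bp away. Of 5 neutrophil attractants with the ELR motif, 1 had a peak (20.0%, against 42.8% of all genes). The Cxcl5 peak lay 2624 bp downstream (28.9, rank 20538). It was the weakest best peak of the 13 genes and was not found on mm9. Cxcl1, Cxcl2, Cxcl3 and Cxcl15 had none, nor did the platelet factor gene Pf4, whose nearest summit was that same Cxcl5 peak at 10513 bp.

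None of the 11 homeostatic chemokine genes had an optimal peak within 10 kb of the outermost start, against 42.8% of all genes with one. That count of 0 did not hold under other settings. With all RefSeq starts Ccl25, a thymic and gut chemokine that binds Ccr9, had a peak 1125 bp upstream of its inner start (signal 27.8, rank 21505), and with the conservative set Ccl28 had one. Among the 11 genes, Ccl19, Ccl21a, Ccl21b, Ccl21d, Ccl27a and Ccl27b lie in 1000 kb of chromosome 4 that holds near-identical gene copies. Between the first and the last of their TSSs the pooled relaxed list, which also holds background intervals, had 0 intervals, against 102.9 per 1000 kb on the rest of the chromosome. With no background intervals either, no absence of binding can be read there, and the part of repeated sequence in this was not tested. Of the other 5, Ccl28 was nearest to a call. It had intervals at rank 19825 in replicate 1 and 10846 in replicate 2 and a peak in the conservative set, but not in the optimal set. Cxcl12, the ligand of Cxcr4, had best intervals at ranks 39089 and 57222 in replicates 1 and 2, and its nearest optimal summit lay 15914 bp downstream. Cxcl13, which draws B cells into follicles through Cxcr5, had best intervals at ranks 241055 and 199098, and its nearest summit was 14164 bp upstream. Ccl25 and Cxcl14 completed the group, with nearest summits 23258 and 44461 bp from the outermost start.

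**Figure D3:**
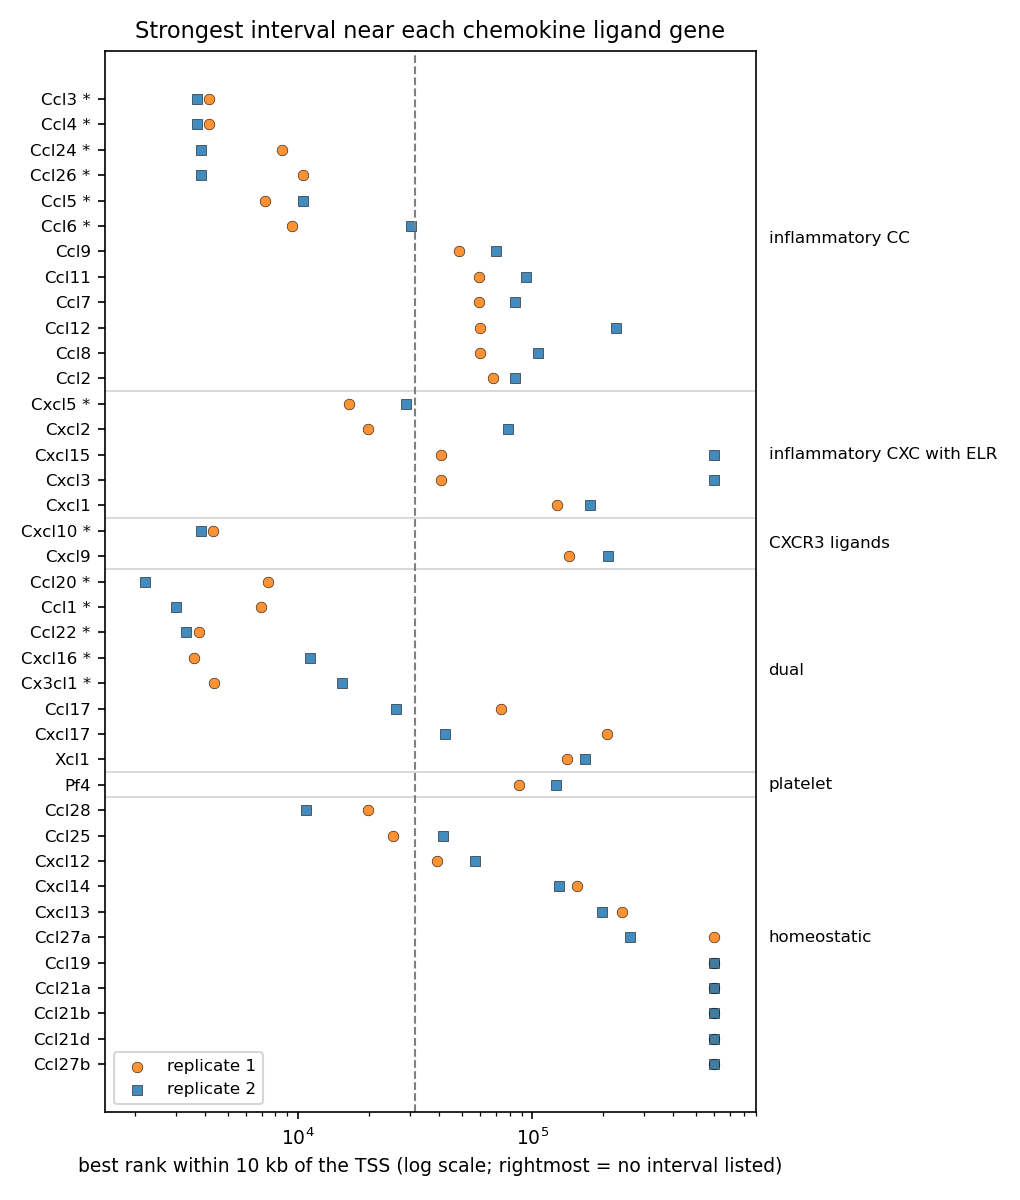
Best rank of any interval within 10 kb of the TSS (log scale, x axis, 1 is strongest) in the relaxed lists of replicate 1 (circles) and replicate 2 (squares) for 39 chemokine genes, grouped by role; genes with an asterisk have an optimal peak, the dashed line stands at rank 31497, the size of the optimal set, and symbols at the right edge mean that no interval was listed. All 13 genes with an optimal peak sit left of the line in both replicates, as does Ccl28, while 5 genes of the chromosome 4 cluster have no interval in either list.

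The 26 genes without an optimal peak had low ranks in the replicate lists. The optimal set derives from those lists, so these ranks are no separate evidence. The same ranks were not computed for all genes without a peak. For the 26 genes, the best interval within 10 kb had a median rank of 59949 in replicate 1 and 94004 in replicate 2. These medians cover the genes for which an interval was listed. In replicate 1 there was no interval for 6 of the 26, and in replicate 2 for 7. An interval within the first 31497 ranks was present for 3 of them in replicate 1 and 2 in replicate 2, and in both only for Ccl28. The rule's limit of 10 kb separated the Ccl22 summit at 9758 bp and the Cx3cl1 summit at 9710 bp from those nearest to Pf4 at 10513 bp and Ccl2 at 12758 bp. Of the 26 genes, 7 had no optimal summit within 50 kb: Ccl8, Ccl12, Ccl19, Ccl21a, Ccl21b, Ccl21d and Ccl27b. For scale, 32 of 39 chemokine genes and 66.8% of all genes had a summit within 50 kb. All of the 7 but Ccl8 and Ccl12 belong to the chromosome 4 stretch without pooled intervals, where no absence can be read. Nearest distances for the 26 had a median of 25769 bp, and those of other genes were not computed.

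**Figure D4:**
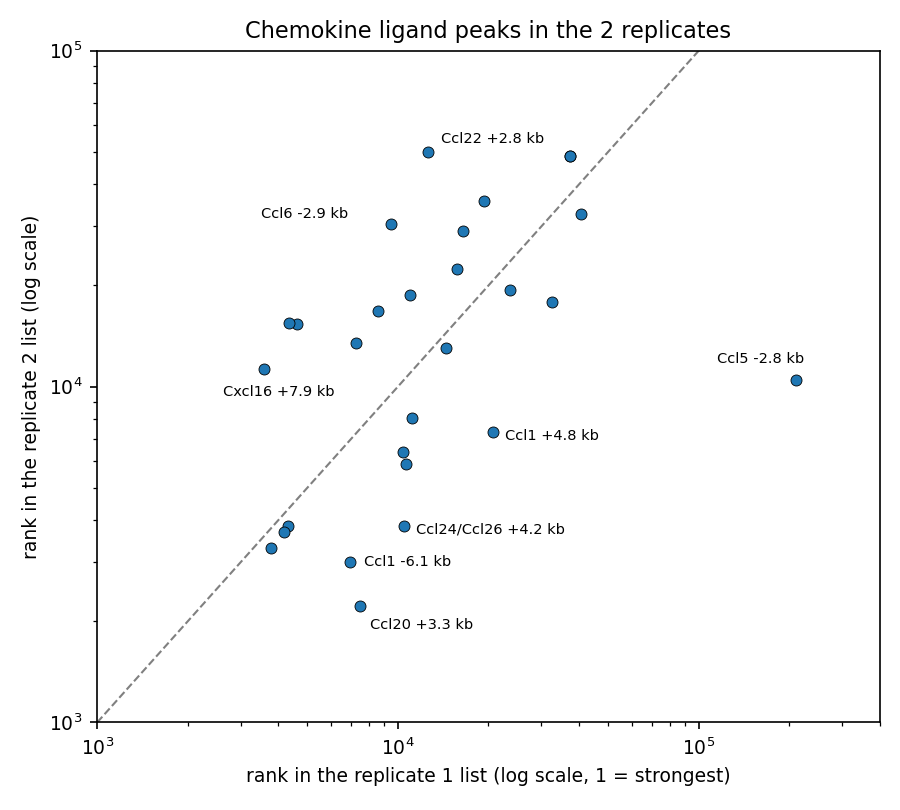
Rank of the best overlapping interval in the relaxed list of replicate 2 (y axis) against that of replicate 1 (x axis), both on log scales with 1 the strongest, for the 28 optimal peaks near chemokine genes; the dashed line marks equal ranks. The promoter peaks of Ccl22, Ccl3 and Cxcl10 lie close to the line between ranks 3304 and 4306, and the Ccl5 peak at 2.8 kb lies farthest from it.

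All 28 peaks were overlapped by an interval in both replicate lists, as were 97.6% of all optimal peaks, and 21 (75.0%) had an interval within the first 31497 ranks of both, against 64.6% of all optimal peaks. The replicates placed individual peaks differently. A better rank in replicate 2 was found for 15 peaks and in replicate 1 for 13, which is 53.6% in favour of replicate 2, against 53.1% over all matched optimal peaks. The larger of both ranks was a median of 1.82 times the smaller, against 1.71 over all matched peaks. It was over 3 times the smaller for 7 of the 28 (25.0%), against 19.1% of all matched peaks. The promoter peaks of Ccl22, Cxcl10 and Ccl3 were placed alike. So were some distal peaks, such as those 4343 bp upstream of Ccl5 (14460 and 13071) and 3081 bp upstream of Cx3cl1 (23669 and 19449). The distal peaks of Ccl20, Ccl1 and Ccl24 with Ccl26 stood higher in replicate 2. The 3 strongest of Cx3cl1 and those of Cxcl16 and Ccl6 stood higher in replicate 1. With 2 replicates these differences cannot be tested. Of the 28 peaks, 24 (85.7%) overlapped a peak of the conservative set, against 76.6% of all optimal peaks. That set put 14 chemokine genes near a peak, against 39.9% of all genes. In the stronger 50% of the optimal set, 11 of 39 chemokine genes (28.2%, 16.5 to 43.8) had a peak, against 25.6% of all genes. On mm9 the stronger 50% left 8 of 38 (21.1%, 11.1 to 36.3), against 13.6%. The order of the shares turned round, but both all-gene shares lie within the intervals. Giving each peak to its nearest gene only left 11 of 39 chemokine genes, without Ccl26 and Cxcl16, against 36.1% of all genes. Among genes with any pooled relaxed interval within 10 kb, 13 of 30 chemokine genes had an optimal peak (43.3%, 27.4 to 60.8), against 53.0% of all.

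The mm9 list, derived from the alignments of both replicates to the older assembly, named 10 chemokine genes. A summit lay within 10 kb of any protein-coding GENCODE TSS for 10 of 38 chemokine genes (26.3%, 15.0 to 42.0), against 28.3% of all 22232 genes. These 10 were also called on mm10, and Ccl4, Ccl6 and Cxcl5 were called on mm10 only. The mm9 list is shorter, at 16839 peaks against 31497 in the optimal set, and was set against other TSSs. The builds are thus not compared at the same threshold. Within 50 kb, 24 of 38 chemokine genes had an mm9 peak, against 54.0% of all genes. There were 19 distinct mm9 peaks, with ranks from 2874 to 16756 of 16839. Ccl1, Ccl20 and Ccl22 again led, followed by Cxcl10 and Ccl3.

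Sequence at the mm9 summits showed no MEF2 consensus in any chemokine peak. Within 50 bp of the summit it occurred in 0 of 19 peaks, which allows a share of up to 15.8%, against 7.13% of all 16839 mm9 peaks. A difference was not detectable with this number of peaks. The shorter MEF2 core occurred in 1 of 19, the Ccl5 peak nearest to the TSS, against 11.2% of all peaks. NF-kB matches occurred in 4 of 19 (21.1%), at Cxcl10, Ccl22 and a pair of Cx3cl1 peaks, against 7.0% of all mm9 peaks and 6.07% of those within 10 kb of a TSS. The Cx3cl1 pair are neighbouring peaks of the same gene and not independent. No difference in the share of any element was tested. AP-1 elements occurred in 3 of 19 (15.8%), at Ccl1, Ccl20 and Ccl24, against 10.7% and 7.06%. A CTCF match occurred in 1, at Ccl1, against 1.32% of all peaks. The ETS and IRF composite, the octamer, RUNX and PU.1 were in 0 of 19.

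The windows below, 50 bp to either side of the mm9 summit on the plus strand, are shown because they carry these elements, in capitals. They are the Ccl20 peak with AP-1 (chr1:83116594-83116694, rank 2874), the Ccl22 peak 3635 bp upstream with NF-kB (chr8:97265805-97265905, rank 8760), the Ccl1 peak 4799 bp downstream with CTCF and AP-1 (chr11:81988465-81988565, rank 10266), the intronic Cx3cl1 peak with 2 NF-kB matches (chr8:97303188-97303288, rank 15729) and the Ccl5 peak with the MEF2 core (chr11:83346802-83346902, rank 16756).
Ccl20: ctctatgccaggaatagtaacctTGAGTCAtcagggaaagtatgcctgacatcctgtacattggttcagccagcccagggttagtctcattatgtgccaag
Ccl22: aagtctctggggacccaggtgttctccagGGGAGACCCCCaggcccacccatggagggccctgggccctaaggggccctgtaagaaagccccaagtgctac
Ccl1: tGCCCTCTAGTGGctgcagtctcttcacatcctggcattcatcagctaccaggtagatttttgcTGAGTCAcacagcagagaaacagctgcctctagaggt
Cx3cl1: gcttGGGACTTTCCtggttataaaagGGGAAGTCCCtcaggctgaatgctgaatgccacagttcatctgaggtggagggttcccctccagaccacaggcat
Ccl5: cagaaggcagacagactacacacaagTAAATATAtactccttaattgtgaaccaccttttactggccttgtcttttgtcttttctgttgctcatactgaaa

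In the Cx3cl1 intron the NF-kB matches were GGGACTTTCC at chr8:97303192-97303201 and GGGAAGTCCC at chr8:97303214-97303223. The neighbouring Cx3cl1 peak, in an exon, held GGGACTTCCC at chr8:97303725-97303734. In the Ccl22 peak the capitals cover a pair of overlapping matches, GGGAGACCCC and GGAGACCCCC. The Ccl20 window held TGAGTCA at chr1:83116617-83116623, and the Ccl1 window held the same letters at chr11:81988529-81988535. In the Ccl5 window the core TAAATATA is flanked by bases that the full MEF2 consensus does not allow.

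Genes of chemokine receptors had MEF2A peaks at a higher share than those of their ligands. Of 23 receptor genes, 15 had an optimal peak within 10 kb (65.2%, 44.9 to 81.2), against 42.8% of all genes. The intervals of receptor and ligand genes overlap. The strongest receptor peaks were at Ccr1 (256, rank 294), Cxcr4 (177, rank 817), Ccr7 (137, rank 1415) and Ccr6 (131, rank 1543), all above the best ligand peak at Ccl20. Some ligands and receptors that bind each other were marked on both sides, as with Ccl20 and Ccr6, or Ccl22 and Ccr4. In others the receptor gene had peaks and the ligand gene none, as with Cxcr4 (6 peaks) and Cxcl12, Cxcr5 (4) and Cxcl13, or Xcr1 (3) and Xcl1. The reverse held for Ccl1 with Ccr8, Cxcl10 with Cxcr3, Cxcl16 with Cxcr6 and Cx3cl1 with Cx3cr1. Neither gene had a peak for Cxcl9 with Cxcr3, or for Cxcl1, Cxcl2 and Cxcl3 with Cxcr2. These pairs are examples from textbook knowledge, set out after the values were seen.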

How the data were processed

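MEF2A ChIP-seq of CH12.LX cells was deposited as 6 peak lists, 5 on mm10 and 1 on mm9. Per the texts deposited with the samples, a relaxed list of peaks and background was called for each replicate and for both pooled, with a control file. The IDR sets, optimal and conservative, derive from these 3 lists. The mm9 list came from the mm9 alignments of both replicates. The signal of a peak is as deposited by the authors and was used for rank within a list. The deposited nominal q-value column, treated as a score since it falls below 0, broke ties. Each relaxed list holds 300000 intervals, and read depth is unknown. The aligner and the peak caller have names not given in the sources used here.

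Tables were made with pandas 2.3.3 and numpy 2.4.6 in Python 3.11.15, intervals with scipy 1.17.1, and plots with matplotlib 3.10.9, in 1-based coordinates. On mm10, 1 outermost RefSeq TSS per gene was used, with the strand from the RefSeq promoter table (17407 genes) or GENCODE vM1 (4023 genes). On mm9 every protein-coding GENCODE vM1 transcript counted. Promoter sequence came from RefSeq for 29 of 40 members and mm9 sequence from NCBIM37. No coordinates were converted, and the builds were joined by symbol. A replicate interval matched at 1 bp of overlap or more. The members and lists were chosen with earlier results of these data known. Ccl21d was added to the homeostatic list after the files were read, and receptor and ligand pairs after the values were seen. Named are all chemokine genes with a peak, those without by cluster, and the 4 receptor genes with the strongest peaks, plus receptors paired with a ligand. Assignment and motif search were tested on simulated data.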

Additional observations from a re-analysis of the deposited data

How the results depend on the processing

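The window set the counts most. Of 39 chemokine genes, 13 had an optimal mm10 peak within 10 kb, 4 within 1 kb and 32 within 50 kb. Over all genes these shares were 42.8%, 28.5% and 66.8%. Of 23 receptor genes, 7 had one within 1 kb, against the same 28.5%. Distinct peaks near chemokine genes numbered 3 within 1 kb, 15 within 5 kb, 77 within 50 kb and 18 in the stronger 50% of the optimal set. On mm9, 3 of 38 chemokine genes had a peak within 1 kb (16.5% of all genes) and 24 within 50 kb (54.0%). Taking the 31497 strongest intervals of 1 replicate in place of the optimal set gave 15 to 16 chemokine genes and 15 to 16 receptor genes. The share over all genes was then 44.1% to 44.2%. Distinct peaks near chemokine genes numbered 30 to 34. Element counts over the 19 mm9 peaks rose with the length searched, and their differences from all mm9 peaks were not tested. Within 100 bp of the summit they were 7 for NF-kB (11.2% of all mm9 peaks) and 1 each for the ETS and IRF composite, RUNX and PU.1 (6.49%, 9.59% and 5.22%). Over the whole interval they were 9 for NF-kB (13.2% of all mm9 peaks), 6 for AP-1 (17.3%), 3 for the MEF2 core (18.8%), 1 for the ETS and IRF composite (7.69%), 2 for RUNX (12.2%) and 2 for PU.1 (6.55%). Alternatives chosen after seeing the data were RefSeq promoter TSSs (14 of 39 chemokine genes, Ccl25 added, 44.1% of all genes), only genes with a pooled relaxed interval (13 of 30, 53.0%) and leaving out the chromosome 4 cluster (13 of 33, 42.8%). No paired analysis was possible because the samples form 1 group. Read depth is unknown, and 2 replicates give no test.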
